A study of Homo sapiens with 6 samples.

Results

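Chemokines are small secreted proteins that guide cells along gradients, and the group described here holds their genes together with those of their receptors. Members were chosen by annotated gene symbol: the CCL, CXCL, XCL and CX3CL ligands, the CCR, CXCR, XCR and CX3CR receptors, and CCRL2, ACKR2, ACKR3 and ACKR4, with pseudogenes left out. Of 18377 genes with a probe set of 1 symbol, 57 were members, namely 37 ligands, 16 receptors and 4 atypical receptors. The only measured value in this choice was brightness over all 6 arrays, by which 1 probe set stood for each gene with more than 1, and this was the case for 3 members.

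The phosphatase PRL-3 (human, gene PTP4A3) was compared with a control vector (named pEGFP in the labels) in TF-1, an acute myeloid leukaemia cell line of erythroid character that needs a cytokine to grow. Both groups, PRL-3 and control, had 3 arrays and were grown in 90% RPMI and 10% fetal bovine serum with 5 ng/ml of human interleukin-3. Per the series title, the question was the role of PRL-3 in leukaemia. Whether a group's arrays are separate cultures, and whether the cells were clones or pools, is not in the labels. The p-values therefore measure array-to-array spread only, part or all of which may be technical.

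Ligands of the CC class have adjacent first cysteines, and those of the CXC class have 1 residue between them. They bind receptors of the G protein-coupled kind that signal mainly through inhibitory G proteins. Atypical receptors bind ligand without that signal, and most, though not all, clear or transport it. In blood forming tissue, CXCL12 and its receptor CXCR4 hold stem and leukaemic cells in the marrow, and inflammatory ligands such as CCL5 and CXCL8 call in leukocytes.

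The targeted gene fitted the labels: PTP4A3 read 10.81, 10.93 and 10.79 in PRL-3 arrays 4, 5 and 6, against 7.92, 8.03 and 7.97 in control arrays 1, 2 and 3 (log2 intensity). Median intensity per array lay between 89.8 and 92.9, and log2 values across genes correlated at 0.9861 to 0.9964 within groups and at 0.9774 to 0.9863 between groups, so the ranges overlapped. All 12 measured TF-1 markers (among them KIT, GATA1, TAL1, CSF2RA and EPOR) were brighter than the median gene, and some differed between groups: KIT rose by 1.01, CSF2RA rose by 0.27 and TFRC fell by 0.52 (log2 difference; limma's adjusted p = 0.000721, 0.0407 and 0.00273). In lists of lymphocyte, monocyte and neutrophil, and stromal and epithelial markers 1 of 9 genes each was, and 0 of these 27 markers passed the test between groups in limma, with 1 at an unadjusted p under 0.05.

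Few chemokine or receptor genes differed between PRL-3 and control cells. CCR4, a receptor best known from T helper cells, was the 1 member that fell, to 0.452 of its control level. The ligand genes CCL5, CXCL8 and CXCL11 rose, by 2.04-, 1.43- and 1.36-fold. Thus 3 of 57 members (5.26%) were higher and 1 of 57 (1.75%) lower at an adjusted p of 0.05 in limma, where 4.58% of all genes were higher and 3.11% lower. These shares are near those of all genes, so the count is not a result about the family. At an unadjusted p under 0.05 there were 8 members, where 20.2% of all genes had one, and 3 members differed by at least 0.5 on the log2 scale, as did 4.06% of all genes. The median log2 difference (PRL-3 minus control) was -0.0007 over the members and -0.0154 over all genes, and the other 53 members lay between -0.32 and 0.29.

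The family was mostly dim. Of the 57 members, 51 were at or below the median brightness of all genes, with mean log2 intensities of 4.84 to 6.79. Brightness depends on the probes as well as on the RNA, and the table gives no detection calls, so a dim gene is not called absent and its true change may be understated. The 6 members above the median were CCR4, CXCL1, CXCL8, ACKR4, CCL5 and CCL17. In each of these 6 the PRL-3 and control arrays did not overlap, as was the case for 31% of all genes above the median brightness, and 2 rose, 1 fell and 3 did not pass. Over all 57 members the groups did not overlap in 4 members that were higher and 7 that were lower (19.3%), against 24.3% of all genes. ACKR4, by the doubtful probe set, is 1 of the 4.

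**Figure D1:**
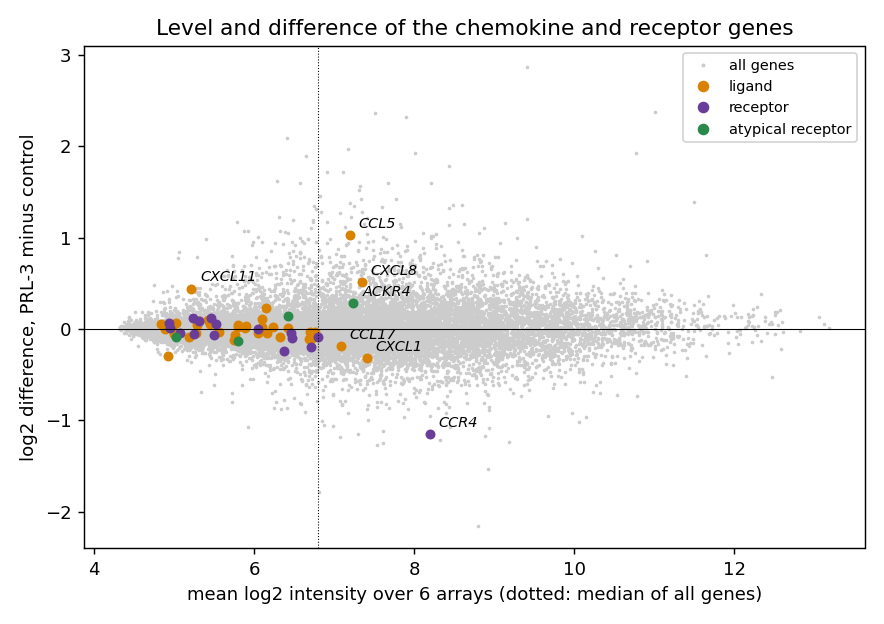
Mean log2 intensity over 6 arrays (x) against the log2 difference, PRL-3 minus control (y), for 18377 genes in grey and the 57 chemokine and receptor genes in colour. Most members lie left of the dotted median brightness and near 0, while CCR4 lies at -1.15, CCL5 at 1.03, CXCL8 at 0.51 and CXCL11 at 0.44.

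The promoters of CCR4, CXCL8 and CXCL11 are shown to set the letters of a member that fell beside those of members that rose. The motifs are those of factors known to drive ligand genes in inflammation. CCL5, which also rose, had no promoter among the sequences used. The bases are the 250 before the annotated start, 5′ to 3′ on the gene's strand, from RefSeq (GRCh38.p14). Capitals mark matches on either strand to AP-1 (TGANTCA), NF-kB (GGANTTTCC), the interferon element (GAAANNGAA) or a TATA box (TATAAA). CCR4 lies at chr3:32951394-32951643 (plus strand), CXCL8 at chr4:73740319-73740568 (plus strand) and CXCL11 at chr4:76036071-76036320 (minus strand).
CCR4: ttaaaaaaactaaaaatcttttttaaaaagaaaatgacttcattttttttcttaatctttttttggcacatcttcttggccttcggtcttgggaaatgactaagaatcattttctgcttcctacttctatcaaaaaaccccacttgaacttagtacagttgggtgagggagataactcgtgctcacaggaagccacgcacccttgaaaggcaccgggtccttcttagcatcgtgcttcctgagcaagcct
CXCL8: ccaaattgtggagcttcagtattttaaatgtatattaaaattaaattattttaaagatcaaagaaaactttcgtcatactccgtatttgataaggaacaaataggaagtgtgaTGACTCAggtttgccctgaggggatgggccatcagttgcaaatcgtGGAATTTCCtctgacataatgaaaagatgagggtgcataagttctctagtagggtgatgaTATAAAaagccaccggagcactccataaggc
CXCL11: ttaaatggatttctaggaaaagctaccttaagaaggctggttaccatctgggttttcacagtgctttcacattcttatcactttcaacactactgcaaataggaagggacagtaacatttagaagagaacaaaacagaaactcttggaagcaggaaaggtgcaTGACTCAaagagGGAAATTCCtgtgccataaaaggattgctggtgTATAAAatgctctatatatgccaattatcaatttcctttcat

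CXCL8 and CXCL11 held the same 3 motifs in the same order. In CXCL8 the AP-1 match spans bases 137 to 131 before the start, the NF-kB match 91 to 83 and the TATA box 31 to 26. In CXCL11 they span 87 to 81, 75 to 67 on the opposite strand, and 42 to 37. No match overlaps another, and the CCR4 window held none of the 4 motifs.

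Among the 41 members with a promoter in the table, the NF-kB letters were found in 8 (19.5%), against 1.47% of 27305 promoters of the same length. The 8 were CXCL1, CXCL2, CXCL3, CXCL5, CXCL6, CXCL8, CXCL10 and CXCL11, all of the CXC class and all on chromosome 4. Genes so alike and so close together are not independent, and only 1 spelling of the motif was searched. The gap between the 2 shares is therefore a description and not a test. Of these 8, 2 rose, 0 fell and 6 did not pass, where 4.58% of all genes were higher and 3.11% lower. A link between these letters and a rise was not tested. The AP-1 letters were found in 6 of 41 members (14.6%) against 6.6% of all promoters, the interferon element in 10 (24.4%) against 7.06%, and the TATA box in 12 (29.3%) against 11.1%. A match is a description of these letters and not a site. The NF-kB letters were thus shared by 2 of the ligands that rose and by ligands that did not pass. CCL5 was not among the 41, so its promoter was neither searched nor shown.

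CCR4 is the receptor of CCL17 and CCL22 on skin-homing and type 2 helper T cells. Its probe set (8078442) read 7.70, 7.56 and 7.60 in PRL-3 arrays, against 8.84, 8.69 and 8.77 in control arrays (log2 intensity). All PRL-3 arrays were about 1 log2 unit under every control array, with narrow spread in both groups. The mean was 7.62 ± 0.07 with PRL-3 and 8.77 ± 0.074 in control (SD, n = 3 each). CCR4 differed by -1.15 ± 0.073 (log2, SE, 95% interval -1.32 to -0.98), which is 2.21-fold lower with PRL-3, with adjusted p = 0.000168 in limma. It ranked 11th of all 18377 genes by size of fall. By exact permutation over the 6 arrays (two-sided) p was 0.1, the smallest possible with 3 against 3, and the same holds for CCL5, CXCL8 and CXCL11. CCR4 passed under all 15 alternatives tried, at -1.19 to -1.07. In bulk RNA, fewer cells that express a gene and less RNA per cell cannot be told apart, here or for the genes below.

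CCR4 lies on chromosome 3 apart from the main group of receptor genes. Of its 20 nearest probe sets by number 19 belonged to genes of that chromosome. Its direct neighbours in RefSeq order did not pass, TRIM71 at 0.12 and GLB1 at -0.19 (log2 difference). TMPPE, next to GLB1 when genes are ordered by start position, fell by 0.55 on the log2 scale (adjusted p = 0.00727, limma). Whether TMPPE and GLB1 overlap was not examined. CMTM6, 4 genes to the other side, rose by 0.45 (adjusted p = 0.00593, limma). These neighbours were named after their values were seen.

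The ligands of CCR4 were measured too. CCL17 read 7.11, 6.75 and 7.10 in PRL-3 arrays, against 7.19, 7.19 and 7.14 in control arrays (log2 intensity). The groups did not overlap, but most of the gap came from PRL-3 array 5. The difference of -0.18 (95% interval -0.42 to 0.05) did not pass (adjusted p = 0.387, limma). CCL22 read 6.50, 6.66 and 6.72 with PRL-3, against 6.79, 6.64 and 6.79 in control. Its groups overlapped, at a difference of -0.11 (95% interval -0.30 to 0.08, adjusted p = 0.551, limma).

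**Figure D2:**
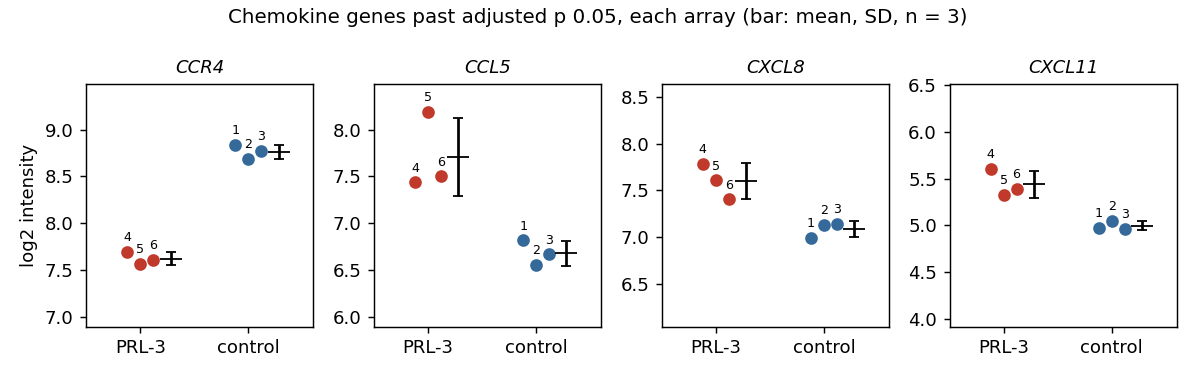
Log2 intensity of CCR4, CCL5, CXCL8 and CXCL11 in each array (numbered points), PRL-3 left of control, with the mean and SD over 3 arrays; each panel spans an equal log2 range. CCR4 is lower and the 3 ligand genes are higher in every PRL-3 array than in every control array, and PRL-3 array 5 stands above the other two for CCL5.

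CCL5, also called RANTES, attracts T cells, monocytes and eosinophils. Its probe set (8014316) read 7.44, 8.19 and 7.50 in PRL-3 arrays, against 6.82, 6.55 and 6.67 in control arrays (log2 intensity). The groups did not overlap, but PRL-3 array 5 was well above the other two PRL-3 arrays. The mean was 7.71 ± 0.417 with PRL-3 and 6.68 ± 0.133 in control (SD, n = 3 each). CCL5 differed by 1.03 ± 0.187 (log2, SE, 95% interval 0.60 to 1.46), or 2.04-fold, with adjusted p = 0.0152 in limma, and it was the 61st largest rise. Without PRL-3 array 5 it was 0.79 and still passed, and without control array 2 it was 0.97 and did not (adjusted p = 0.0858, limma). Beside CCL5 and CCR4, the mean of 9 lymphocyte markers was 5.94 to 5.997 in PRL-3 arrays and 5.91 to 6.04 in control arrays (log2 intensity). These ranges overlap; any part of other cells in the 2 differences was not tested.

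Of the receptors of CCL5, CCR1 read 5.55, 5.40 and 5.44 with PRL-3, against 5.57, 5.44 and 5.58 in control (log2 intensity). These values overlapped, at a difference of -0.07 (95% interval -0.24 to 0.11, adjusted p = 0.716, limma). The other ligand genes measured in the same stretch of chromosome 17 as CCL5 (CCL16, CCL23, CCL18, CCL3 and CCL4) did not pass and lay between -0.04 and 0.06. The genes on either side of CCL5, HEATR9 and RDM1, did not pass either, at -0.05 and 0.20. In the other group of ligand genes on that chromosome, CCL2, CCL7, CCL11, CCL8 and CCL1, 0 of 5 passed, with differences of -0.05 to 0.02.

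CXCL8, or interleukin-8, attracts neutrophils. Its probe set (8095680) read 7.78, 7.61 and 7.40 in PRL-3 arrays, against 6.99, 7.13 and 7.14 in control arrays (log2 intensity). The lowest PRL-3 array was above the highest control array by less than the range of the PRL-3 arrays. The mean was 7.60 ± 0.191 with PRL-3 and 7.09 ± 0.083 in control (SD, n = 3 each). The difference was 0.51 ± 0.104 (log2, SE, 95% interval 0.27 to 0.75), or 1.43-fold, with adjusted p = 0.0237 in limma. With 1 array left out it was 0.42 to 0.61 and passed in 2 of the 6 fits, with adjusted p of up to 0.089 without control array 2.

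CXCL1 is a close relative of CXCL8, shares its receptor CXCR2 and lies in the same stretch of chromosome 4. It went the other way by value: 7.34, 7.06 and 7.35 in PRL-3 arrays, against 7.54, 7.40 and 7.75 in control arrays (log2 intensity). The groups did not overlap, yet the difference of -0.32 (95% interval -0.58 to -0.05) did not pass (adjusted p = 0.164, limma). The remaining neutrophil ligands of that stretch, CXCL2, CXCL3, CXCL5 and CXCL6, were dim and lay between 0.03 and 0.05.

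The receptors of CXCL8 were among the dimmest members. CXCR1 read 5.05, 5.02 and 5.10 with PRL-3, against 5.04, 5.15 and 5.10 in control. CXCR2 read 4.95, 5.03 and 4.88 with PRL-3, against 4.89, 5.01 and 4.93 in control (log2 intensity). Both overlapped between the groups, with differences of -0.04 (95% interval -0.20 to 0.11) and 0.01 (95% interval -0.16 to 0.18).

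CXCL11 is induced by interferon and attracts activated T cells through CXCR3. Its probe set (8101131) read 5.60, 5.32 and 5.39 in PRL-3 arrays, against 4.97, 5.05 and 4.96 in control arrays (log2 intensity). The groups did not overlap, but all 6 values lay near the lower end of the table: the gene stood at the 9.67 percentile of brightness. The difference of 0.44 ± 0.087 (log2, SE, 95% interval 0.24 to 0.64) was 1.36-fold (adjusted p = 0.0203, limma), and it was 0.31 when 16 was added to each intensity before the log. With 1 array left out it passed in 2 of the 6 fits, with adjusted p of up to 0.0723 without control array 2.

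The 2 ligands that share CXCR3 and the chromosome 4 neighbourhood with CXCL11 did not pass. CXCL10 read 6.53, 6.02 and 6.24 with PRL-3, against 6.06, 6.12 and 5.91 in control, and CXCL9 differed by 0.05 (95% interval -0.10 to 0.20). The CXCL10 groups overlapped, at 0.23 (95% interval -0.06 to 0.53, adjusted p = 0.377, limma), and at 0.10 without PRL-3 array 4. CXCR3 itself read 6.69, 6.52 and 6.63 with PRL-3, against 6.71, 6.86 and 6.87 in control. It lay lower in every PRL-3 array by a small margin and did not pass (-0.20, 95% interval -0.38 to -0.02, adjusted p = 0.203, limma). ACKR3, an atypical receptor that binds CXCL11 and CXCL12, differed by -0.09 (95% interval -0.29 to 0.12). CXCR3, ACKR3 and CXCL10 were named after their values were seen.

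**Figure D3:**
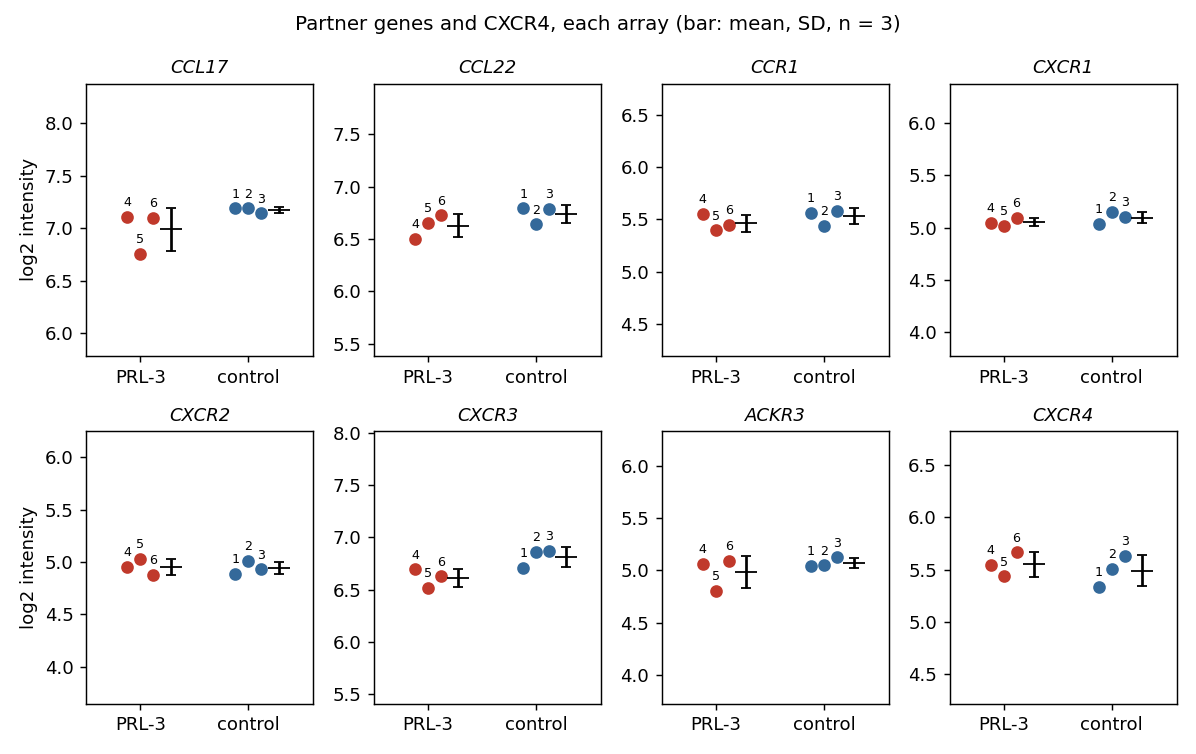
Log2 intensity in each array (numbered points), PRL-3 left of control, with mean and SD over 3 arrays, for the ligands of CCR4 (CCL17, CCL22), receptors of CCL5 (CCR1), CXCL8 (CXCR1, CXCR2) and CXCL11 (CXCR3, ACKR3), and for CXCR4. Differences lie between -0.20 and 0.06 and none passed in limma.

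CXCR4, the receptor that retains blood-forming cells in the marrow, read 5.55, 5.44 and 5.67 in PRL-3 arrays, against 5.33, 5.51 and 5.63 in control arrays (log2 intensity). The groups overlapped throughout. The difference of 0.06 had a 95% interval of -0.17 to 0.28, and that of its ligand CXCL12 was 0.09 (-0.14 to 0.31). CCR7, which guides lymphocytes to lymph nodes, read 6.76, 6.77 and 6.70 with PRL-3, against 6.92, 6.86 and 6.74 in control. CX3CL1, a membrane-bound ligand, read 6.74, 6.69 and 6.82 with PRL-3, against 6.68, 6.78 and 6.89 in control. Both overlapped between the groups, at -0.09 (95% interval -0.26 to 0.08) for CCR7 and -0.03 (-0.21 to 0.15) for CX3CL1. These intervals leave out a 2-fold change in array intensity but not a small one. CXCR4 and CXCL12 were dim, at the 15.6 and 11.6 percentiles of brightness. A larger change in their RNA is therefore not left out.

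Among the 4 atypical receptors 0 passed in limma, and 1 had an unadjusted p under 0.05. That was ACKR4, a scavenger of CCL19 and CCL21, at 7.30, 7.42 and 7.43 with PRL-3, against 6.92, 7.21 and 7.16 in control (log2 intensity). Its difference was 0.29 ± 0.093 (log2, SE, adjusted p = 0.116, limma). The probe set behind these values (8122334) is doubtful, since 0 of its 20 nearest probe sets by number belonged to genes of chromosome 3, where ACKR4 lies, and all 20 to chromosome 6. The dimmer ACKR4 probe set (8082745) averaged 6.15 with PRL-3 and 5.66 in control, a difference of 0.49 ± 0.189 that did not pass either (adjusted p = 0.237 over all probe sets, limma). In the group of 6 receptor genes on chromosome 3 from CCR9 to CCRL2, 0 passed and differences lay between -0.13 and 0.12.

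Outside the called genes, XCL1 had the lowest p. It read 4.74, 4.78 and 4.79 in PRL-3 arrays, against 5.17, 5.17 and 4.86 in control arrays (log2 intensity). Control array 3 lay near the PRL-3 arrays and the other two controls higher. The difference of -0.30 did not pass on all arrays (adjusted p = 0.112, limma), and XCL1 passed without control array 3 and with array weights. XCL1 was chosen for naming by its value.

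**Figure D4:**
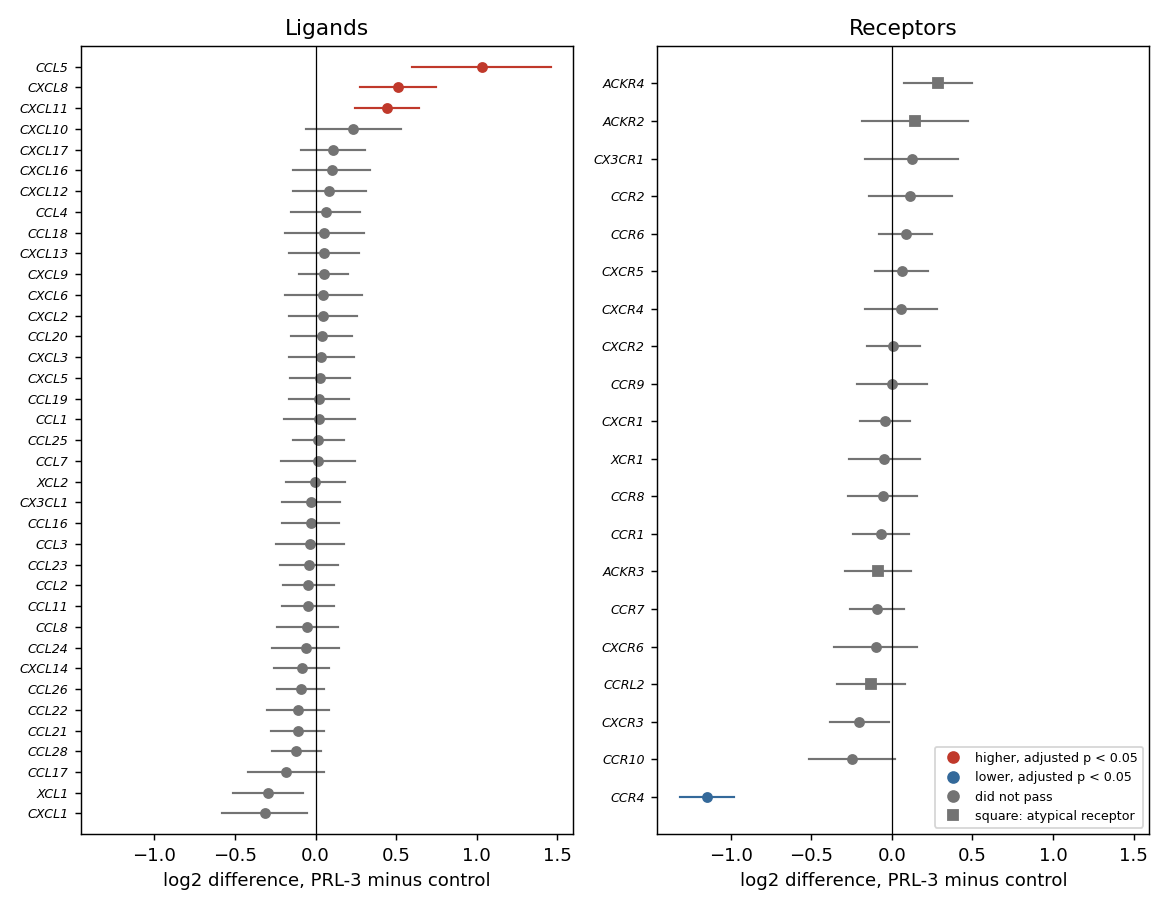
Log2 difference, PRL-3 minus control, with limma's 95% interval for the 37 ligand genes (left) and the 20 receptor genes (right; squares are atypical receptors), ordered by value. CCL5, CXCL8 and CXCL11 lie above 0 and CCR4 below it past adjusted p 0.05, and the other 53 lie between -0.32 and 0.29.

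Genes that carry or end the receptors' signal were described by a list of G proteins, receptor kinases, arrestins, RGS proteins and migration factors. Of its 34 measured members 4 rose (11.8%) and 0 fell, and 30 did not pass, where 4.58% of all genes were higher and 3.11% lower. Of the 34, 28 lay above the median brightness, where these shares were 6.67% and 5.01%. The median difference was 0.02, against -0.02 for all genes. RGS2, which speeds the shut-off of G protein signals, read 7.83, 7.80 and 7.84 in PRL-3 arrays, against 6.56, 6.51 and 6.71 in control arrays (log2 intensity). It was higher in each PRL-3 array by over 1 log2 unit, at 1.23 ± 0.075 (log2, SE, 2.34-fold, adjusted p = 0.000135, limma). Whether RGS2 acts on the signals of chemokine receptors in these cells was not tested. The receptor kinases GRK3 and GRK5, which mark active receptors for arrestin, rose by 0.59 ± 0.072 and 0.41 ± 0.062 (adjusted p = 0.00281 and 0.00673, limma). As the mean of its probe sets, GRK5 was at 0.20 and did not pass (adjusted p = 0.218, limma). GNAI1, an inhibitory G protein subunit, rose by 0.60 ± 0.144 (adjusted p = 0.0426, limma), and it did not pass in 4 of the 6 fits with 1 array left out. RGS1, a chemokine-linked member of the RGS family, differed by 0.03.

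Genes that modify chemokines or their receptors rose in 3 of 17 (17.6%) and fell in 0, where 4.58% of all genes were higher and 3.11% lower. Of the 17, 11 lay above the median brightness. The difference between the list and all genes was not tested, and the list was chosen with earlier results known. TPST1, which sulfates tyrosines of receptors and so tightens ligand binding, read 7.22, 7.16 and 7.02 in PRL-3 arrays, against 6.32, 6.48 and 6.44 in control arrays (log2 intensity). The groups lay well apart, at 0.72 ± 0.081 (log2, SE, adjusted p = 0.002, limma). EXT1, which builds the heparan sulfate chains that hold chemokines at surfaces, rose by 0.59 ± 0.077 (adjusted p = 0.00366, limma). MME, a surface peptidase, rose by 0.44 ± 0.083 (adjusted p = 0.0184, limma), from dim values, and did not pass in 4 of the 6 fits with 1 array left out.

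Other chemoattractant genes, among them the platelet chemokines PF4 and PPBP, the atypical receptor gene ACKR1 and the formyl peptide and complement receptor genes, passed in 0 of 16 in limma, with 0 at an unadjusted p under 0.05. PPBP differed by 0.24 (95% interval -0.05 to 0.53) and PF4 by -0.02 (95% interval -0.18 to 0.14). These platelet ligands lie between CXCL8 and CXCL2 on chromosome 4.

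Of the factors that induce chemokines in inflammation, 1 of 30 rose (3.33%) and 3 fell (10%), where 4.58% of all genes were higher and 3.11% lower. Of the 30, 20 lay above the median brightness, where 6.67% of genes were higher and 5.01% lower. JUN, a subunit of AP-1, read 7.49, 7.58 and 7.74 in PRL-3 arrays, against 6.77, 6.71 and 6.58 in control arrays (log2 intensity), and rose by 0.92 ± 0.088 (log2, SE, adjusted p = 0.00104, limma). NFKB1, a subunit of NF-kB, went the other way, at 8.51, 8.48 and 8.43 with PRL-3, against 9.14, 9.18 and 8.93 in control. It fell by 0.61 on the log2 scale (SE 0.083, adjusted p = 0.0043, limma). The endotoxin receptor gene TLR4 fell by 0.66 (SE 0.095, adjusted p = 0.00584, limma). Its adaptor MYD88 fell by 0.45 (SE 0.111, adjusted p = 0.0457, limma), and it passed in 1 of the 6 fits with 1 array left out. Whether any of these had a part in the differences of CCL5, CXCL8 or CXCL11 was not tested.

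**Figure D5:**
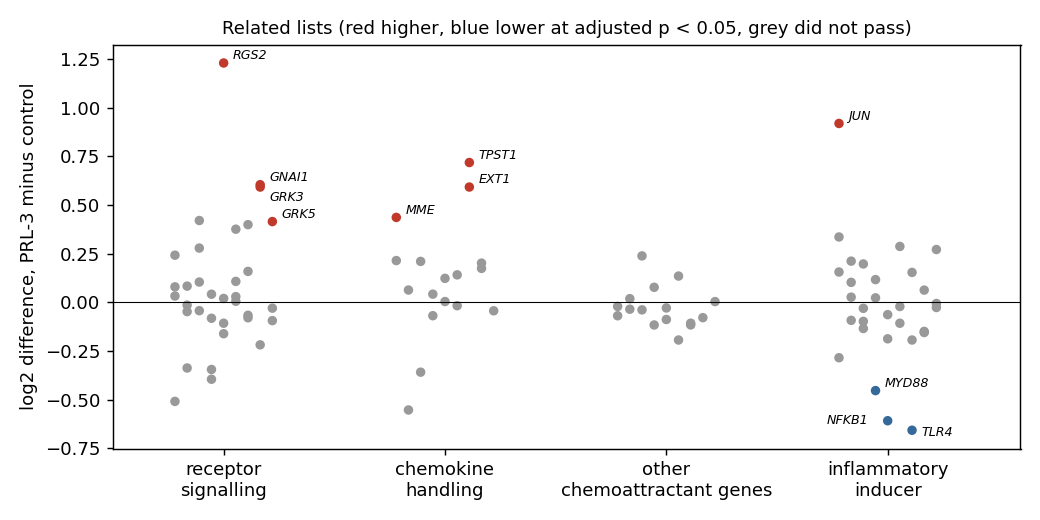
Log2 difference, PRL-3 minus control, of each measured gene in 4 lists of related genes (34, 17, 16 and 30 genes; points are spread sideways for legibility). RGS2 at 1.23 and JUN at 0.92 lie highest, TLR4 at -0.66 lies lowest, and 0 of the other chemoattractant genes passed.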

How the data were processed

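Total RNA was labelled as biotinylated cDNA from 100 ng per sample, per the labels, and hybridised to a whole-transcript human array. The table deposited by the authors gives an intensity for each of 28869 probe sets on each array. Values were positive with near-equal medians, so they were taken as normalized; summarisation, background correction and normalization were not given in the sources used here, and a between-array step would make differences relative to most genes. Intensities were taken to log2. Platform annotation gave 19310 probe sets 1 symbol; 1752 with several and 7807 with none were left out. The brightest probe set stood for a gene, which left 18377 genes. PRL-3 and control arrays were compared by limma 3.58.1 (R 4.3.3; lmFit, eBayes, two-sided, Benjamini-Hochberg over all genes, threshold 0.05); intervals are 95% and moderated. The test was tested on simulated data. The number of arrays limits the precision.

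Members, lists and the naming rule were chosen with earlier results of these data known. Array values were given for members past the threshold, those with a log2 difference of at least 0.5, and the 8 brightest. Partners of the called genes were given too, and of each related list up to 4 called genes were named. Outside this rule, CXCR4, CXCR3, CXCL10 and XCL1 were added with array values, and ACKR3 in a figure. Motifs were searched in RefSeq promoters (250 bases). Alternatives were 2 normalizations, an offset of 16, array weights, robust variances with an intensity trend, a brightness filter, 2 treatments of probe sets, each array left out, and control 1 with PRL-3 5 left out. Figures were drawn with matplotlib 3.10.9.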

Additional observations from a re-analysis of the deposited data

How the results depend on the processing

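CCR4 passed and kept its direction under all 15 alternatives. CCL5 did in 14 of 15, CXCL8 in 10 of 15 and CXCL11 in 10 of 14, and these 3 kept their direction in all. Of the members, 0 to 3 were higher and 1 to 2 lower with 1 array left out, where fewer arrays enter the fit: 0 were higher without control 2, and 1 each without control 1 and without PRL-3 4. Array weights, taken from the spread of these same arrays, called 4 members lower (CCR4, XCL1, CCRL2 and CXCR3), where they also called 12.5% of all genes lower. With them 9 receptor signalling genes were higher and 6 lower, 6 handling genes higher and 2 lower, 1 other chemoattractant gene higher and 2 lower, and 5 inducers higher and 7 lower. Among genes above the median level, which tests fewer genes, 2 signalling genes and 1 handling gene were higher. Quantile normalization gave 1 signalling gene lower and 2 inducers higher, and leaving out control 1 and PRL-3 5 together gave 2 inducers higher; the cause was not tested. With 1 array left out the lists gave 3 to 4 signalling genes higher and 0 to 2 lower, 2 to 3 handling genes higher and 0 to 2 lower, 0 other chemoattractant genes, and 1 to 2 inducers higher and 2 to 3 lower.

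Of the 57 members, 29 changed sign under at least 1 alternative, 0 of them called on all arrays and with differences of at most 0.116 in size. With 1 array left out CXCR4 ranged from -0.0219 to 0.128, CXCL12 from -0.0122 to 0.178 and ACKR3 from -0.137 to 0.0035. Likewise CX3CL1 ranged from -0.0791 to 0.0254 and CXCR2 from -0.0284 to 0.0483 with 1 array left out, CCR1 was at 0.0275 and CXCR2 at -0.0558 with array weights, and CXCR2 was at -0.0544 without control 1 and PRL-3 5 together. No paired analysis was possible because the groups share no replicate numbers, which run from 1 to 3 and from 4 to 6. Dim members, most of the family, are limited by signal over an unknown background.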

Other observations

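Probe sets that read several chemokine genes at once were not used for any member. The 3 probe sets annotated to CCL3, CCL3L1 and CCL3L3 together averaged 6.92, 6.92 and 6.92 with PRL-3 and 7.11, 7.12 and 7.12 in control (log2 intensity), and did not pass (differences of -0.19, -0.19 and -0.20, with adjusted p of 0.541, 0.534 and 0.514 over all probe sets, limma). They are near-identical copies, so they are 1 measurement in effect. The 3 probe sets for CCL4 and its copies differed by -0.02 to -0.08, that for CCL14 and CCL15 by -0.07 and that for CCL27 by 0.09, and 0 of these passed.

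The probe sets that stand for CCR2 and CCRL2 had 12 and 11 of their 20 nearest probe sets on chromosome 3, fewer than the other members' except ACKR4, for which at least 15 of 20 lay on the gene's chromosome. The dimmer probe sets of CCR2 and CCRL2 differed by 0.04 and -0.16, against 0.12 and -0.13 for those used, and none passed in limma.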
